A study of Rattus norvegicus with 4 samples.

Results

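The 7 subunits of respiratory complex I that are encoded in mitochondrial DNA, Nd1, Nd2, Nd3, Nd4, Nd4l, Nd5 and Nd6, were followed through 4 libraries of untreated FRT cells. FRT is an epithelial cell line from the thyroid of the Fischer rat, and here it was grown in serum-supplemented Coon's F12 medium. The 4 preparations form the only group, so no treated or control cells stand beside them. The labels call them biological replicates without saying how the cultures were kept apart. The members were taken by their Ensembl gene IDs, 7 of the 32754 gene IDs in the deposited counts. All 7 IDs were found once in every library, and 6 of them had counts. The gene symbols come from the definition of the set, because the files pair no ID with a name, and for the same reason the thyroid and epithelial identity of the cells was not checked against marker genes.

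Complex I takes electrons from NADH, hands them to ubiquinone and uses the energy released to move protons across the inner mitochondrial membrane. Its membrane arm is built around the subunits made inside the mitochondrion, while the remaining subunits are imported. Mitochondrial DNA is transcribed from both strands as long precursors that are cut mostly at the transfer RNAs lying between the coding genes. Nd6 is the only messenger of the light strand, and Nd4l and Nd4 are known to stay joined in a shared messenger in mammals. In thyroid tissue, damaging mutations of these genes are known from oncocytic tumours.

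RNA was read by 3' tag sequencing (QuantSeq), in which a polyadenylated transcript yields a tag near its end. Levels are given as CPM, each gene's counts scaled to a total of 1000000 over all genes, without division by transcript length. The libraries held 1160202 to 1999175 gene counts, so 1 count was worth 0.5002 to 0.862 CPM. Intervals in brackets are exact 95% Clopper-Pearson intervals and cover counting error only, since amplified copies were not marked. In bulk libraries of this kind, fewer cells of a type and less RNA per cell cannot be told apart.

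The 7 subunits together took 1.59% ± 0.373 of gene counts (SD, n = 4). Their summed share was 1.48% in replicate 1 (1.46 to 1.5002), 1.12% in replicate 2 (1.11 to 1.14), 1.99% in replicate 3 (1.97 to 2.01) and 1.76% in replicate 4 (1.73 to 1.78). Replicate 3 was thus the highest library and replicate 2 the lowest, and none of the 4 counting intervals overlapped. Nd1 and Nd2 made up most of this sum, at 86.7% ± 0.904 of the subunit counts (SD, n = 4), and from 85.9% to 88.0% in single libraries.

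Among the antiporter-like subunits, each of which carries a proton path in the membrane arm, Nd2 was the most abundant member of the set. Nd2 (ENSRNOG00000031033.4) was measured at 9302, 7250, 10966 and 9923 CPM in replicates 1 to 4, with a mean of 9360 CPM ± 1566 (SD, n = 4). This made it the gene of rank 5 by mean CPM in the whole series. Its level in every library was above that of any other subunit in any library.

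Nd5 (ENSRNOG00000029971.3), the antiporter-like subunit at the far end of the membrane arm, was measured at 1163, 1032, 1176 and 733 CPM in replicates 1 to 4. The mean was 1026 CPM ± 206 (SD, n = 4), rank 57 of all genes. Replicate 4 was the low library, and the other 3 lay close together.

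Nd4 (ENSRNOG00000029707.3), the remaining subunit of the antiporter-like kind, had 0 counts in all 4 libraries. As a limit for a count of 0, up to 3 counts were allowed, a lower figure than the upper end of the two-sided exact interval (2.83, 1.85, 2.21 and 3.18 CPM). This limit is 2.30, 1.501, 1.80 and 2.59 CPM in replicates 1 to 4. Against that limit in each library, Nd2 was 3838-fold higher (replicate 4) to 6106-fold higher (replicate 3). Nd4l, the partner on the shared messenger, was 12-fold higher in replicate 1, 17.7-fold in replicate 2, 65.3-fold in replicate 3 and 24-fold in replicate 4. These folds set observed counts against the limit of 3 counts. They are not lower bounds, and the exact interval would give smaller ones. Nd4 was 1 of 19384 annotated genes with no count in any library. The same files set aside 2930635 to 4749468 alignments per library as not unique, and 767 to 1175 reads per library as overlapping more than 1 gene, without naming the genes. The part of these reads in the 0 of Nd4 was not tested. The deposited 0 is a value of the counting and does not show that the messenger was absent.

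The subunits around the ubiquinone site were Nd1, which helps to form the site, and Nd3, whose loop beside it changes shape as the enzyme passes between its active and resting forms. Nd1 (ENSRNOG00000030644.4) had levels of 3508, 2409, 6186 and 5536 CPM in replicates 1 to 4, a mean of 4410 CPM ± 1755 (SD, n = 4) and rank 11 of all genes. Nd3 (ENSRNOG00000033615.3) was measured at 407, 252, 1077 and 1084 CPM in replicates 1 to 4, a mean of 705 CPM ± 438 (SD, n = 4) and rank 115. Both genes were high in replicates 3 and 4 and low in replicates 1 and 2.

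Nd4l (ENSRNOG00000031053.3), a small subunit in the middle of the membrane arm, had the lowest mean CPM of the members with counts. Where tags of the messenger shared with Nd4 fall was not tested, so this level need not be that of the messenger. It was measured at 27.6 CPM in replicate 1 (19.3 to 38.2), 26.5 CPM in replicate 2 (19.9 to 34.7), 117 CPM in replicate 3 (101 to 135) and 62.1 CPM in replicate 4 (48.6 to 78.2). The mean was 58.4 CPM ± 42.6 (SD, n = 4), rank 2448 of all genes. Replicates 3 and 4 were again the high ones, as for Nd1 and Nd3, while replicates 1 and 2 were within each other's counting intervals. The values rest on 36, 53, 196 and 72 counts.

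Nd6 (ENSRNOG00000029042.3) packs beside Nd4l in the membrane arm, and in human cells its messenger is known to lack a stable poly(A) tail. Its levels were 385, 273, 372 and 236 CPM in replicates 1 to 4. Its mean was 317 CPM ± 73.5 (SD, n = 4), rank 345 of all genes. Replicates 1 and 3 were high and replicates 2 and 4 low. Nd5 and Nd6 lie end to end on opposite strands, and no source used here gives the strand setting of the counting. Reads of Nd6 and reads of the opposite strand of the same stretch can therefore not be told apart.

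**Figure D1:**
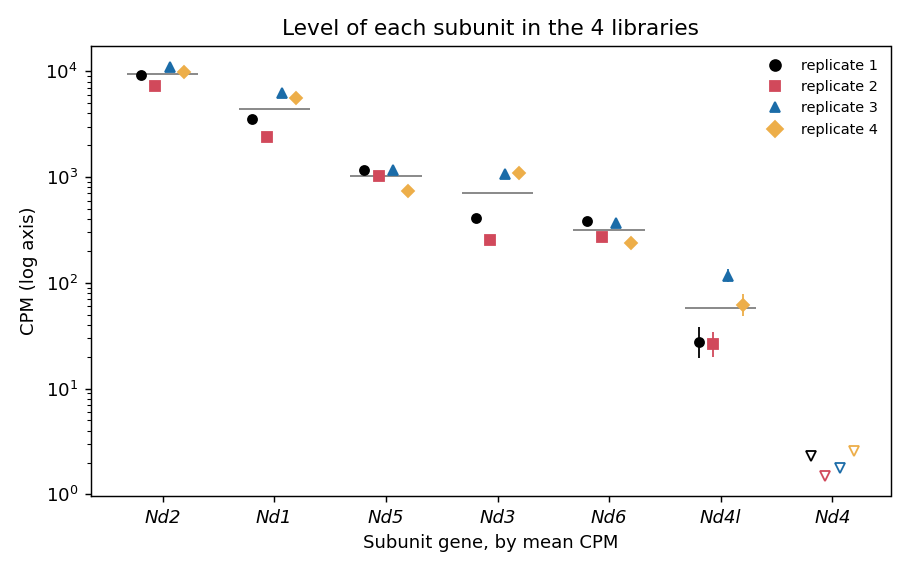
Level of each subunit gene in CPM (log axis), ordered by mean; symbols are the 4 libraries, bars their 95% counting intervals and grey lines the mean of 4. Nd2 lies above all others, from 7250 to 10966 CPM. The open triangles of Nd4 mark the level of 3 counts, 1.501 to 2.59 CPM, which is lower than the upper end of the exact interval for 0 counts.

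By mean CPM the order was Nd2, Nd1, Nd5, Nd3, Nd6 and Nd4l, followed by Nd4 without counts. The order is one of 3' tag counts scaled as CPM and not of levels per length, since lengths of the messengers were not used here. Of the 5 pairs of neighbours with counts, 3 kept their order in every library, and the CPM ranges of these 3 pairs did not overlap. With 4 libraries the two-sided exact sign-flip permutation test cannot give a p under 0.125, so no pair could pass a threshold of 0.05.

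Nd2 exceeded Nd1 in 4 of 4 libraries, by 1.17 ± 0.39 on the log2 scale (SD, n = 4, exact permutation p = 0.125). Nd1 exceeded Nd5 in 4 of 4 libraries, by 2.03 ± 0.77 on the log2 scale (SD, n = 4, exact permutation p = 0.125). Nd6 exceeded Nd4l in 4 of 4 libraries, by 2.69 ± 1.05 on the log2 scale (SD, n = 4, exact permutation p = 0.125). These are the steps of the order that held in each preparation.

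The middle of the order was not constant between libraries. Nd5 exceeded Nd3 in 3 of 4 libraries, by 0.78 ± 1.21 on the log2 scale (SD, n = 4, exact permutation p = 0.375), and Nd3 was the higher of the pair in replicate 4. Nd3 exceeded Nd6 in 3 of 4 libraries, by 0.92 ± 1.12 on the log2 scale (SD, n = 4, exact permutation p = 0.375), and was just below it in replicate 2, at 252 against 273 CPM. In both pairs the spread between libraries was larger than the mean difference, and the CPM ranges overlapped.

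The next question was whether the subunits differed between preparations by more than counting noise. All 6 subunits with counts did, at adjusted p-values of 5.15e-18 or lower (chi-square test of counts on TMM-scaled library sizes, Benjamini-Hochberg adjustment over 7571 genes). Of all genes tested, 65.7% were called by the same rule, so most genes were called as well. When each statistic was first reduced 3.63-fold, the excess seen in genes of 40 to under 100 counts, 15.2% of all genes and all 6 subunits were called. That factor comes from genes with few counts and need not hold for genes counted as often as most subunits. The 15.2% is therefore not a background of like abundance. Among genes with 400 or more counts, 85.2% were called without the reduction, as were all 5 subunits tested. TMM is edgeR's scaling, which offsets the weight of the few genes that dominate a library. It shifted all levels by 0.17 in replicate 2 and by -0.19 in replicate 4 on the log2 scale relative to deposited totals.

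The size of the differences set the subunits apart from each other. After TMM scaling, the highest library exceeded the lowest 4.65-fold for Nd4l, 4.00-fold for Nd3, 2.40-fold for Nd1, 1.92-fold for Nd5, 1.89-fold for Nd6 and 1.41-fold for Nd2. A range of 2-fold or more was found for 3 of the 6, beside 48.3% of all genes tested. The median range of the 6 was 2.16, and that of all 7571 genes was 1.96. As a group, then, the subunits stood near the background, with Nd3 and Nd4l at one end and Nd2 at the other.

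Genes of similar mean CPM, within 2-fold to either side, give a closer scale. For Nd3, 257 such genes had a median range of 1.65, and 96.1% of them had a smaller range than its own 4.00. For Nd4l, 2822 such genes had a median range of 1.76, and 96.4% of them had a smaller range. Nd6 exceeded 70.6% of 763 genes and Nd5 exceeded 60% of 145 genes. Few genes are as abundant as Nd1 and Nd2: Nd1 exceeded 66.7% of 12 genes, and none of the 6 genes around Nd2 had a smaller range than Nd2.

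A formal comparison with the spread of genes of similar abundance, edgeR's quasi-likelihood dispersion against its robust trend, called 0 of the 6 subunits at an adjusted p under 0.05, beside 0.0647% of all genes (4 of 6186). At an unadjusted p under 0.05 it called 2 of the 6, Nd3 and Nd4l, beside 5.82% of all genes, whereas the chi-square test against counting noise called all 6. The quasi-likelihood dispersion of Nd4l was 7.02 times its trend (edgeR adjusted p = 0.347) and that of Nd3 was 6.67 times its trend (edgeR adjusted p = 0.358). This dispersion is on the scale of a variance, so these ratios are not folds of spread between libraries. Nd4l and Nd3 were called only without the filter on low counts, at edgeR adjusted p = 0.0210 for Nd4l and 0.0111 for Nd3. There 1.23% of all genes were called. The other 4 subunits, Nd1, Nd2, Nd5 and Nd6, had adjusted p-values of 0.992 or more in edgeR with the filter.

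**Figure D2:**
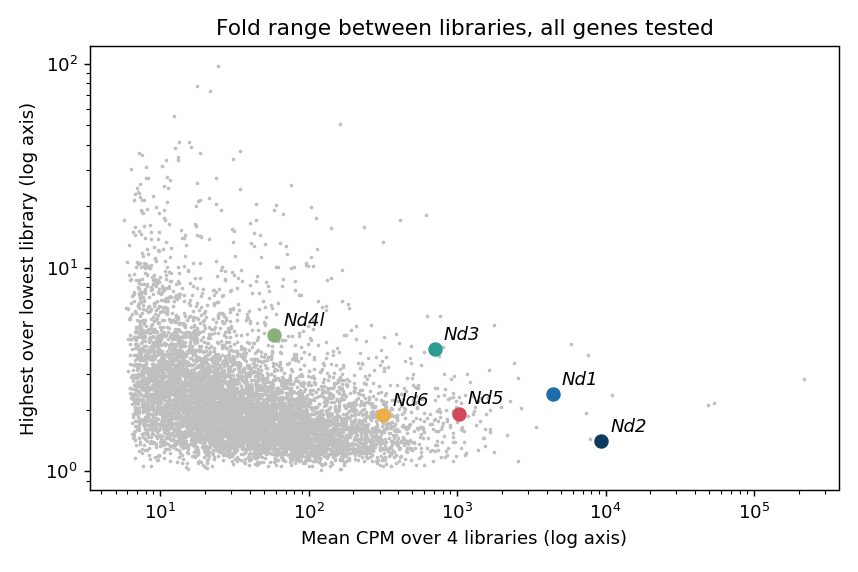
Highest over lowest library after TMM scaling against mean CPM (both log axes) for the genes tested, in grey, and the 6 subunits with counts, in colour; 20 genes with a library at 0 are not drawn. Nd4l at 4.65 and Nd3 at 4.00 lie in the upper part of the genes around them, and Nd2 at 1.41 lies low.

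Single libraries carried part of these ranges. Without replicate 3 the range of Nd4l was 2.05 instead of 4.65, and its mean was 38.7 instead of 58.4 CPM. Its quasi-likelihood dispersion was then 1.45 times the trend instead of 7.02 (edgeR adjusted p = 0.989). Only 1 of the 6 subunits, Nd3, then remained under an unadjusted p of 0.05 in edgeR. The share of all genes under that p was not computed with a library left out. Without replicate 4 the range of Nd5 was 1.10 instead of 1.92, and its chi-square adjusted p rose to 0.0210, still under the threshold. Nd1 fell under a 2-fold range without replicate 2 (1.93) or replicate 3 (1.79), which leaves 2 of the 6 subunits at 2-fold or more. Ranges over fewer libraries tend to be narrower for any gene, and the share of all genes was not computed for them. Nd3 kept a range of 2.89 or more whichever library was left out. Without replicate 4 its dispersion was 11.4 times the trend and that of Nd4l 11.8 times, with edgeR adjusted p-values of 0.285 and 0.280.

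After TMM scaling all 6 subunits with counts were highest in replicate 3, as were 25.7% of all genes tested. With DESeq2 size factors, or after removing the 20 most abundant genes from the totals, all 6 were also highest there. Of all genes tested, 25.2% and 26.0% were highest there under these scalings. They rescale the same counts and are not separate support. With deposited totals 4 of the 6 were, beside 17.9% of all genes, while Nd3 was highest in replicate 4 and Nd6 in replicate 1. The 6 genes share the mitochondrial DNA and its long precursors and are not independent of each other.

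The lowest library was not the same for all 6. Nd1, Nd2 and Nd3 were lowest in replicate 2 under all 4 scalings, as were 26.7% of all genes after TMM scaling and 38.6% with deposited totals. Nd5 and Nd6 were lowest in replicate 4 under all 4 scalings, as were 27.8% and 16.3% of all genes. Nd4l was lowest in replicate 1 under 3 scalings and in replicate 2 with deposited totals, where its values in the pair of libraries were 27.6 and 26.5 CPM. As deviations from its own mean of log2 CPM, Nd3 was at -0.58 in replicate 1, -1.05 in replicate 2, 0.94 in replicate 3 and 0.69 in replicate 4. Nd5 was at 0.15, 0.20, 0.29 and -0.65 in the same libraries. Replicate 4 was thus among the high libraries for Nd3 and was the low library for Nd5.

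**Figure D3:**
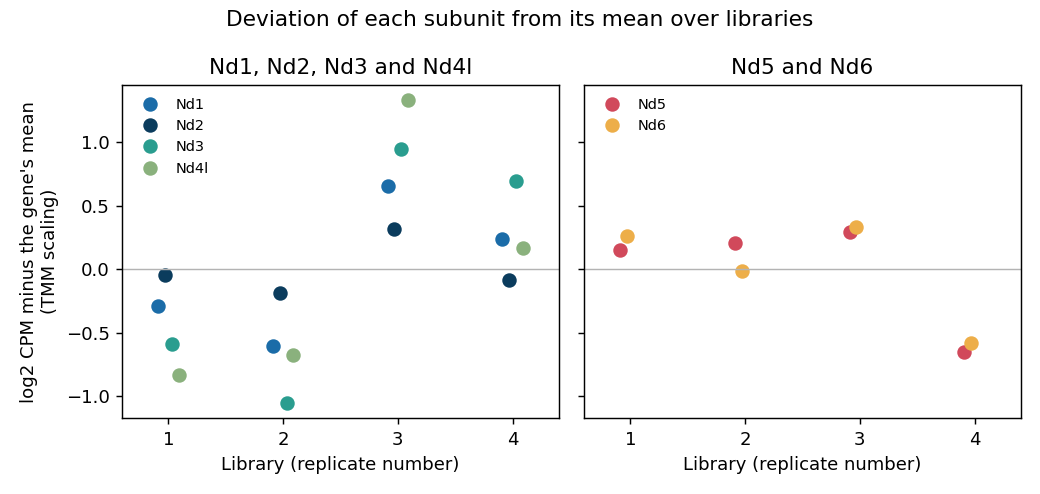
Deviation of log2 CPM (TMM scaling) from each gene's mean over the 4 libraries, with the genes sorted into the panels after their values were seen. All 6 points of replicate 3 lie above 0, and in replicate 4 Nd3 stands at 0.69 while Nd5 stands at -0.65.

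The closeness of profiles was measured as the root mean square difference of these deviations over the 4 libraries, and the 5066 other genes whose mean reached 20 CPM served as the scale. Nd5 and Nd6 were the closest pair, at 0.13, with the limit given above that reads of Nd6 and of the opposite strand cannot be told apart. Of the other genes, 90 (1.78%) were closer to Nd5 than Nd6 was, and 89 (1.76%) were closer to Nd6 than Nd5 was. Nd3 and Nd1 were 0.38 apart, with 97 other genes (1.91%) closer to Nd3, but 883 (17.4%) closer to Nd1. Nd4l and Nd3 were 0.40 apart, with 38 other genes (0.7501%) closer to Nd4l and 121 (2.39%) closer to Nd3.

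Subunits from opposite ends of this scale were far apart. Nd3 and Nd5 differed by 1.04, and 74.6% of the other genes were closer to Nd3 than Nd5 was. Nd2, which varied least, was 0.30 from Nd6, 0.34 from Nd1, 0.35 from Nd5, 0.70 from Nd4l and 0.72 from Nd3. Of the other genes, 35.7%, 45.0%, 48.9%, 91.7% and 92.7% were closer to Nd2 than these subunits were, so none of them lay particularly near it. With only 4 libraries, many genes come close to any profile, and these distances are a description.

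Ratios taken within a library do not depend on scaling between libraries. The profile distances between subunits rest on nearly the same ratios, so the split below restates them and is not a separate result. The ratio of Nd6 to Nd5 counts was 0.331 in replicate 1 (0.299 to 0.367), 0.264 in replicate 2 (0.240 to 0.290), 0.316 in replicate 3 (0.288 to 0.346) and 0.322 in replicate 4 (0.280 to 0.370). Replicate 2 was somewhat low, and its interval did not reach that of replicate 1. The highest of the 4 ratios was 1.25 times the lowest, the narrowest range of the 15 pairs of subunits with counts. Because the strand setting is not known, this ratio may not compare separate messengers. The part of opposite-strand reads in the Nd6 counts was not tested.

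The ratio of Nd3 to Nd5 had the widest range of the 15 pairs, 6.07-fold. Replicates 1 and 2 gave 0.350 (0.316 to 0.386) and 0.244 (0.221 to 0.269), and replicates 3 and 4 gave 0.916 (0.859 to 0.977) and 1.48 (1.36 to 1.62). The 4 counting intervals did not overlap. The ratio of Nd1 to Nd5 ran the same way, at 3.02, 2.33, 5.26 and 7.56 in replicates 1 to 4, a range of 3.24-fold.

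Nd1 and Nd2, neighbours at the start of the heavy-strand coding genes, had the second narrowest range, 1.70-fold. Their ratio was 0.377 and 0.332 in replicates 1 and 2 and 0.564 and 0.558 in replicates 3 and 4. The pair of Nd2 and Nd6, which lie on opposite strands, came next at 1.74-fold. Among Nd1, Nd3 and Nd4l, the ranges were wider than for Nd1 and Nd2: ratios ranged 1.88-fold for Nd1 to Nd3, 1.90-fold for Nd3 to Nd4l and 2.41-fold for Nd1 to Nd4l.

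**Figure D4:**
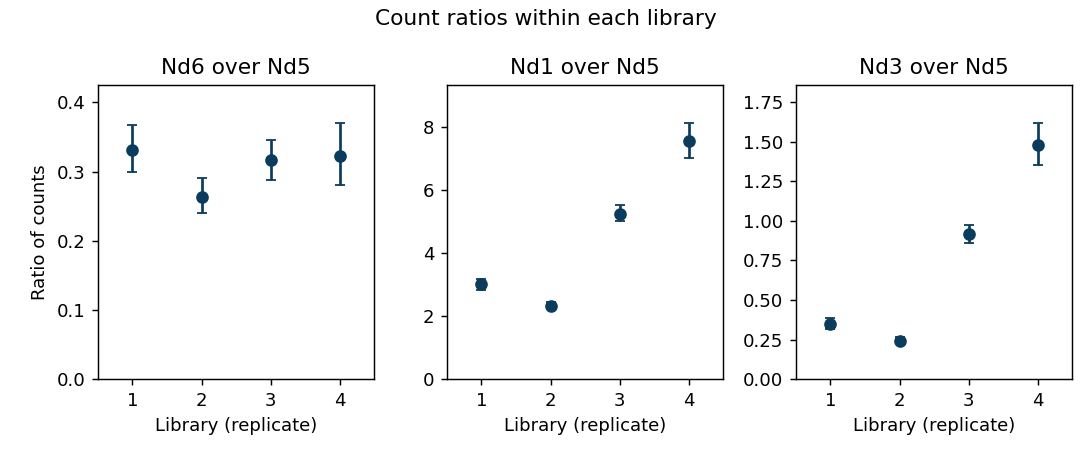
Ratio of counts within each library, with 95% counting intervals, for Nd6, Nd1 and Nd3 over Nd5; each panel has its own vertical axis starting at 0. Nd6 over Nd5 stays between 0.264 and 0.331, while Nd3 over Nd5 spans 0.244 to 1.48.

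The make-up of the subunit counts shifted accordingly. Nd2 held 62.9% and 64.5% of them in replicates 1 and 2, and 55.1% and 56.5% in replicates 3 and 4. Nd1 held 23.7% and 21.4% in replicates 1 and 2, and 31.1% and 31.5% in replicates 3 and 4. The shares of Nd1 and Nd2 thus moved in opposite directions, and their joint share stayed nearly level. This pair held most of a fixed sum, so a rise in the share of Nd1 largely entails a fall in that of Nd2. The CPM levels of the pair did not move oppositely: each gene peaked in replicate 3 and had its minimum in replicate 2.

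Among the minor members, Nd5 took 7.86%, 9.18%, 5.91% and 4.17% of the subunit counts in replicates 1 to 4. Nd3 took 2.75%, 2.24%, 5.41% and 6.17%, so that it overtook Nd5 in replicate 4. Nd6 took 2.61%, 2.42%, 1.87% and 1.34%, and Nd4l took 0.186% to 0.590%. Shares of a fixed sum are tied to each other and are not separate measurements.

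**Figure D5:**
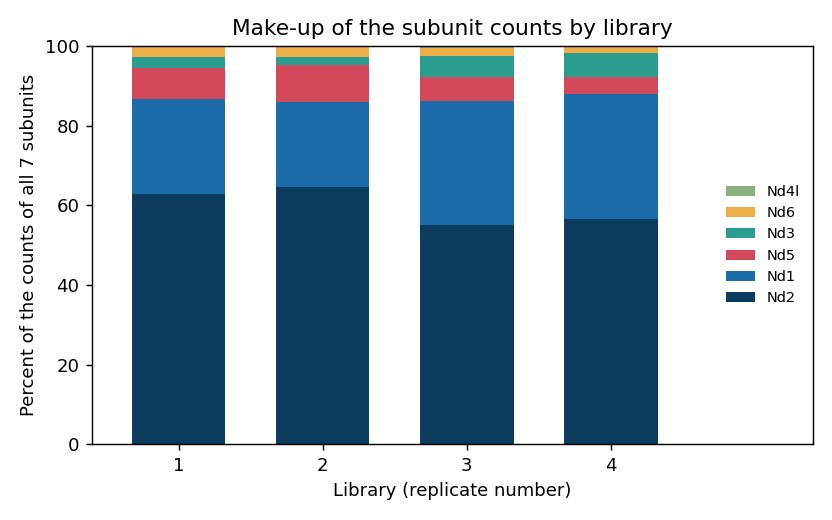
Percent of the counts of all 7 subunits held by each subunit in the 4 libraries. Nd2 takes 62.9% and 64.5% in replicates 1 and 2 and 55.1% and 56.5% in replicates 3 and 4, and Nd4 has no counts to show.

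Outside the set, the genes whose profile lay closest to the summed subunits were ENSRNOG00000005052.6 and ENSRNOG00000008487.7. The first stood at 27.6, 21.5, 38.3 and 34.5 CPM in replicates 1 to 4, with a root mean square difference of 0.024 on the log2 scale over the 4 libraries. The second stood at 419, 308, 541 and 497 CPM, with a difference of 0.027. The median difference over the 5066 genes searched was 0.40. Both genes were picked as the smallest of these differences, and with only 4 libraries many genes come close to any profile. Counting error was not taken into account, and 1 count was worth 0.5002 to 0.862 CPM. The symbols of both genes are not known here.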

How the data were processed

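The authors deposited raw counts per Ensembl gene ID. Per the labels' protocols, libraries were made with a QuantSeq 3' kit from total RNA and read as single ends of 100 bases. Per the submitters' processing notes, STAR and HTSeq were used on build rn6. No source used here gives versions, annotation release, strand setting or duplicate handling. The counter's summary lines were left out of totals.

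CPM, shares, ratios and their intervals were computed from the counts of the 4 libraries. Genes with 40 or more counts in all entered the chi-square test. The trend test used edgeR's filter on low counts and an intercept-only design. R 4.3.3, edgeR 4.0.16 and DESeq2 1.42.0 (size factors only) were used, and the scripts were tested on simulated data. The genes outside the set were named by the smallest profile difference, first 2 of 5. Planned lists of nuclear complex I, RNA-processing and marker genes were not analysed here, because none of the IDs could be linked to a symbol, nor were sequences or positions of the members. The members and lists were chosen with earlier results of these data known. Chi-square p-values measure departure from counting noise, and edgeR p-values set a gene's dispersion against the abundance trend. Sign-flip p-values concern the ratio of a pair of subunits over the 4 libraries. All hold for these preparations only, with 1 library each, so preparation and library making cannot be told apart.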

Additional observations from a re-analysis of the deposited data

Results flagged for a closer look

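Dixon's test flagged none of 34 sets of 4 values (levels, shares and ratios of the subunits). Chance passes about 1 set in 20. With 4 values the test flags only a wide gap, so an unflagged set does not show that its libraries lay together. The range of Nd5, for example, fell from 1.92 to 1.10 without replicate 4 (TMM scaling). Outside the gene counts, the files list alignments set aside as not unique, at least 2930635 in every library. The genes they belong to are not named in the files, and how many of them come from Nd4 was not tested.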

How the results depend on the processing

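No paired analysis was possible because all 4 libraries belong to a single group. The summed share of 1.59% became 2.67% of totals without the 20 most abundant genes and 1.02% of uniquely aligned reads, both through the change of denominator, and 1.45% to 1.74% with each library removed in turn. The number of neighbour pairs in a constant order, 3 of 5, was 3 to 4 with each library removed in turn. All 6 subunits with counts stayed past the chi-square threshold under each alternative in which they were tested, while the share of all genes called ran from 15.2% (each statistic reduced by the excess of genes with few counts) to 85.2% (a minimum of 400 counts, where Nd4l was not tested). The mean of Nd4l, 58.4 CPM, became 98.6 CPM with totals that lack the 20 most abundant genes. Against the edgeR trend, 2 subunits instead of 0 passed once genes with few counts were also admitted (the cause was not tested), and 0 passed whichever library was removed. An order by coding length was not run. Depth limits statements below 1.501 to 2.586 CPM, the level of 3 counts.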
